A study of Cyanidioschyzon merolae strain 10D with 6 samples.

Results

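The genes rbcL, rbcS and CFXQ lie side by side on the plastid genome of the red alga Cyanidioschyzon merolae and encode both subunits of Rubisco and an activase protein. They were chosen by their identifiers in the deposited annotation (CMV013C, CMV014C and CMV015C), and all 3 were found among 207 plastid genes and 4984 genes in all. The study measured poly(A) RNA in 6 libraries, 3 of the mutant line Cme(z)-1 and 3 of wild type 10D, to learn what loss of Polycomb Repressive Complex 2 (PRC2) does to gene expression. PRC2 is a nuclear complex whose catalytic subunit, E(z), methylates histone H3. Both groups grew in acidic mineral medium under constant white light, aerated with ambient air and given no extra CO2. The mutant was a single line, so any other trait of that line goes with the group. Separate cultures are not stated for the replicates, and the p-values rest on a spread that may be technical.

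Rubisco fixes CO2 in the Calvin cycle and is assembled from a large subunit (rbcL) and a small subunit (rbcS). Red algae keep both genes on the plastid genome, whereas in land plants the small subunit is encoded in the nucleus. CFXQ (CbbX) is a ring-forming ATPase that frees the red-type enzyme from inhibitory sugar phosphates. The plastid also encodes RbcR, a LysR-type regulator of this operon.

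On the plastid chromosome of build ASM9120v1, rbcL spans chrChloro:7504-8967, rbcS chrChloro:8989-9402 and CFXQ chrChloro:9490-10368, all on the plus strand and each a single coding exon without annotated untranslated regions. A gap of 21 bases separates rbcL from rbcS, and one of 87 bases separates rbcS from CFXQ. Upstream of rbcL lie 432 bases before trxA, which is transcribed away from the operon, and 158 bases separate the end of CFXQ from ilvH on the minus strand. Libraries were unstranded, so sense and antisense reads of these genes cannot be told apart. The submitters' repeat annotation places a transposable element (TE) copy over each gene, as it does over 95 of the 207 plastid genes. The copy over rbcL held 0 to 6 counts a library and the copy over CFXQ 0 to 3. The copy over rbcS held 30, 2 and 11 counts in the Cme(z)-1 libraries and 18, 2 and 19 in the wild-type libraries.

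The libraries held 8292567 to 10754544 counts in Cme(z)-1 and 7860491 to 9188335 in wild type. The E(z) gene CMQ156C had 0 counts in each Cme(z)-1 library, which allows up to 3, and 1776, 1533 and 1770 counts in the wild-type libraries. Plastid genes took 1.11%, 1.13% and 0.789% of counts in Cme(z)-1 replicates 1, 2 and 3 and 0.862%, 0.843% and 1.01% in those of wild type. These shares overlapped between the groups (two-sided exact permutation p = 0.4), and Cme(z)-1 replicate 3 had the lowest of all. Plastid RNA carries few stable poly(A) tails, so the counts are of the plastid RNA that passed poly(A) selection. Whether that passage differed between the groups was not tested.

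The transcripts of both Rubisco subunits were lower in Cme(z)-1 than in wild type, to 55.4% of the wild-type level for rbcL and 56.4% for rbcS. CFXQ, the last gene of the run, did not pass the test and was fitted at 92.8% of the wild-type level. Levels are read counts divided by library size, as CPM, with library sizes scaled by the trimmed mean of M-values (TMM), which assumes most genes do not change. An adjusted p under 0.05 counted as passing, after Benjamini-Hochberg adjustment over all genes and TE copies tested.

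The large-subunit gene rbcL had 1027, 676 and 1007 counts in the Cme(z)-1 libraries and 1529, 1361 and 1150 in the wild-type libraries. Scaled, these were 95.3, 81.7 and 93.8 CPM in Cme(z)-1 and 169.8, 175 and 145 CPM in wild type. Every Cme(z)-1 library lay far below every wild-type library, and the gap between the groups was wider than the range within either. A separation of any size, with every Cme(z)-1 library below every wild-type library, was seen for 1.61% of plastid genes tested. It was seen for 12.8% of all genes tested. The means were 90.3 ± 7.46 CPM in Cme(z)-1 and 163 ± 15.7 CPM in wild type (SD, n = 3 each). The log2 fold change of rbcL was -0.85 (SE 0.11, 95% interval -1.11 to -0.60, adjusted p = 0.0026, edgeR quasi-likelihood test). In the same fit 1.83% of all genes tested, and 1.08% of plastid genes tested, were called lower in Cme(z)-1. The call for rbcL was kept in each of the 6 fits that left out 1 library, with log2 fold changes between -0.93 and -0.79.

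The small-subunit gene rbcS had 263, 255 and 255 counts in the Cme(z)-1 libraries and 457, 387 and 312 in the wild-type libraries. These correspond to 24.4, 30.8 and 23.8 CPM in Cme(z)-1 and 50.7, 49.6 and 39.4 CPM in wild type. The groups did not overlap, and wild-type replicate 3 was the lowest of its group for rbcS as for rbcL. The means were 26.3 ± 3.91 CPM in Cme(z)-1 and 46.6 ± 6.25 CPM in wild type (SD, n = 3 each). The log2 fold change of rbcS was -0.83 (SE 0.17, 95% interval -1.20 to -0.45, adjusted p = 0.022 in the same edgeR test). This call was less firm than that of rbcL, since it was lost without Cme(z)-1 replicate 1 (adjusted p = 0.11, edgeR), without Cme(z)-1 replicate 3 (0.068), without wild-type replicate 1 (0.12) and without wild-type replicate 2 (0.064). The log2 fold change stayed between -0.95 and -0.76 in the 6 fits with 1 library left out. With the counts of the overlying TE copy added to the gene, an alternative chosen after seeing the data, it was -0.80 (adjusted p = 0.017, edgeR).

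The activase gene CFXQ had 284, 170 and 130 counts in the Cme(z)-1 libraries and 189, 144 and 191 in the wild-type libraries. Scaled, these were 26.4, 20.5 and 12.1 CPM in Cme(z)-1 and 21.0, 18.5 and 24.1 CPM in wild type. The highest and the lowest of the 6 values both came from Cme(z)-1, so the groups overlapped in full. The means were 19.7 ± 7.16 CPM in Cme(z)-1 and 21.2 ± 2.83 CPM in wild type (SD, n = 3 each). Counting error alone was 5.93% to 8.77% per library, well under the spread among the Cme(z)-1 libraries. The log2 fold change of CFXQ was -0.11 (SE 0.28, 95% interval -0.74 to 0.52, adjusted p = 0.90, edgeR). Without Cme(z)-1 replicate 3, the library with the smallest plastid share, it was 0.15.

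**Figure D1:**
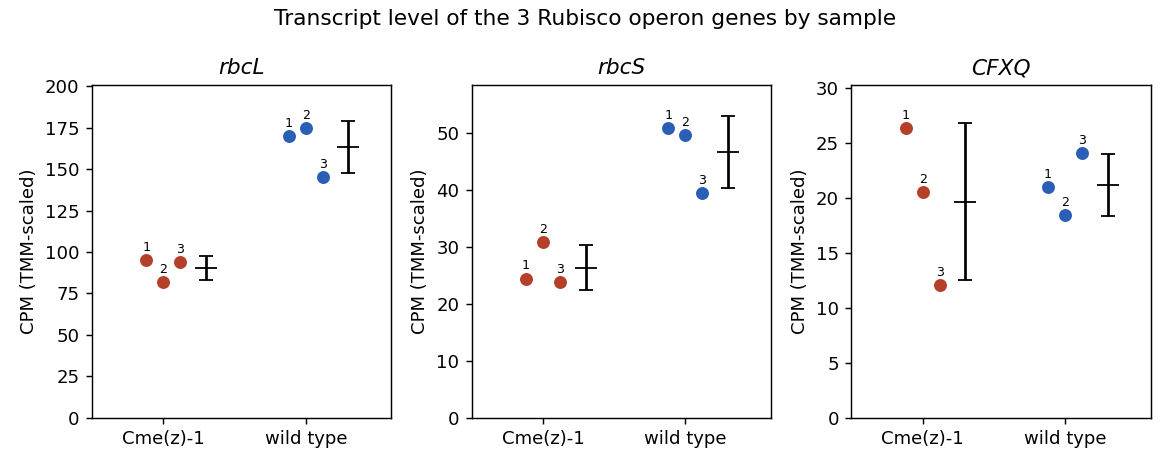
Level of rbcL, rbcS and CFXQ in each library, in CPM over TMM-scaled library sizes, with Cme(z)-1 in red and wild type in blue; numbers are replicate numbers, and the black mark and bar are mean and SD of 3 libraries. For rbcL (81.7 to 95.3 CPM in Cme(z)-1, 145 to 175 CPM in wild type) and rbcS the groups are apart, while for CFXQ the Cme(z)-1 libraries reach from 12.1 to 26.4 CPM, on both sides of the wild-type libraries.

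**Figure D2:**
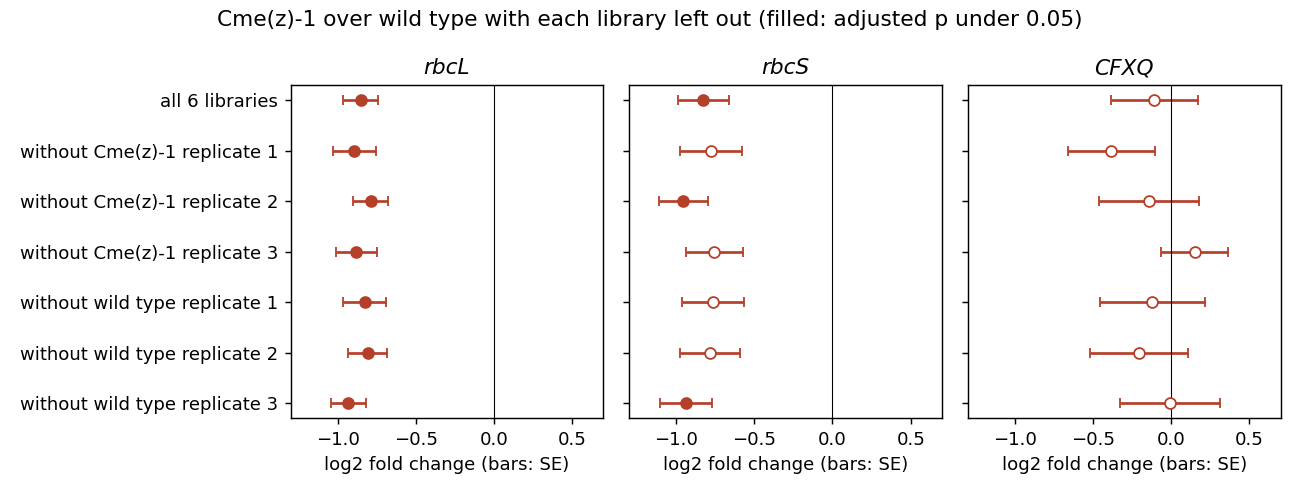
Log2 fold change (Cme(z)-1 over wild type) with its SE for each operon gene, from all 6 libraries and with each library left out; filled points have an adjusted p under 0.05 (edgeR). All 7 points of rbcL are filled, 3 of the 7 of rbcS are filled, and those of CFXQ lie on both sides of 0.

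Per length of coding sequence the 2 subunit genes had nearly equal levels, and CFXQ had less, in the RNA that passed poly(A) selection. Whether that passage differed between genes was not tested. In Cme(z)-1 the levels were 61.7 CPM per kb for rbcL, 63.6 for rbcS and 22.4 for CFXQ. In wild type they were 111 CPM per kb for rbcL, 113 for rbcS and 24.1 for CFXQ. Among the 207 plastid genes ordered by this level, rbcL stood at place 46 in Cme(z)-1 and 29 in wild type, and rbcS at place 45 in Cme(z)-1 and 28 in wild type. CFXQ stood at place 78 in Cme(z)-1 and 66 in wild type. In the single libraries rbcL held places 45, 50 and 37 in Cme(z)-1 and 27, 26 and 35 in wild type, so that the closest libraries of the groups were 2 places apart.

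The ratio of rbcS to rbcL per coding length was 0.906, 1.33 and 0.895 in the Cme(z)-1 libraries and 1.06, 1.01 and 0.959 in the wild-type libraries. Its mean was 1.04 ± 0.250 in Cme(z)-1 and 1.01 ± 0.0488 in wild type (SD, n = 3 each). Cme(z)-1 replicate 2 stood above the others and held the lowest rbcL and the highest rbcS level among the Cme(z)-1 libraries. The difference in the log2 ratio of rbcS to rbcL was 0.028 (SE 0.19, two-sided exact permutation p = 1). Its direction depended on single libraries, with -0.16 without Cme(z)-1 replicate 2, 0.12 and 0.13 without Cme(z)-1 replicates 1 and 3, 0.064 without wild-type replicate 1 and -0.0061 without wild-type replicate 3.

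The ratio of CFXQ to rbcL counts was 0.277, 0.251 and 0.129 in the Cme(z)-1 libraries and 0.124, 0.106 and 0.166 in the wild-type libraries. Replicates 1 and 2 of Cme(z)-1 lay above all wild-type libraries, and replicate 3 lay among them. The log2 ratio was 0.68 higher in Cme(z)-1 (SE 0.39), which did not pass (two-sided exact permutation p = 0.2, adjusted p = 0.23 over 7 ratios; the smallest p that 3 against 3 libraries can give is 0.1). With 1 library left out this difference ranged from 0.48 (without Cme(z)-1 replicate 1) to 1.03 (without Cme(z)-1 replicate 3). The ratio of rbcS to CFXQ counts was 0.926, 1.5 and 1.96 in Cme(z)-1 and 2.42, 2.69 and 1.63 in wild type. The groups again overlapped (log2 difference -0.65, SE 0.38, exact permutation p = 0.2). With 1 library left out the difference ranged from -0.90 (without Cme(z)-1 replicate 3) to -0.36 (without Cme(z)-1 replicate 1). A difference in response between CFXQ and the subunit genes was therefore not shown.

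Measured against the summed counts of the 204 other plastid genes, rbcL and rbcS were again lower in Cme(z)-1. This measure does not depend on the scaling of the libraries or on the plastid share of the RNA. In bulk RNA, fewer cells expressing the operon and less of its RNA per cell cannot be told apart. Counts of rbcL were 0.868%, 0.732% and 1.29% of the other plastid counts in the Cme(z)-1 libraries and 1.98%, 2.03% and 1.48% in the wild-type libraries. The groups did not overlap, but Cme(z)-1 replicate 3 and wild-type replicate 3 came close to each other. On this scale 3.23% of the plastid genes tested had all Cme(z)-1 libraries below all wild-type libraries. The log2 difference for rbcL was -0.96 (SE 0.28, two-sided exact permutation p = 0.1, the smallest possible).

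Counts of rbcS were 0.222%, 0.276% and 0.326% of the other plastid counts in Cme(z)-1 and 0.593%, 0.577% and 0.402% in wild type, without overlap (log2 difference -0.93, SE 0.24, exact permutation p = 0.1). For CFXQ they were 0.240%, 0.184% and 0.166% in Cme(z)-1 and 0.245%, 0.215% and 0.246% in wild type, with overlap (log2 difference -0.27, SE 0.17, exact permutation p = 0.2). The 3 genes summed made up 1.43% ± 0.307 of the other plastid counts in Cme(z)-1 and 2.59% ± 0.400 in wild type (SD, n = 3 each), or 55.0% of the wild-type value (exact permutation p = 0.1). Adjusted over the 7 ratios, p was 0.23 for each of these comparisons. 

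An edgeR fit of the whole table, with library sizes set to the summed counts of the other plastid genes, called rbcL (log2 fold change -0.93, SE 0.29, adjusted p = 0.031) and rbcS (-0.93, SE 0.30, adjusted p = 0.039) but not CFXQ (-0.26, SE 0.32, adjusted p = 1.0). In this fit too 1.08% of plastid genes tested were called lower. Fitted on plastid genes alone with the same library sizes, rbcL and rbcS had log2 fold changes of -0.93 each with an adjusted p of 0.0020 (edgeR), and CFXQ did not pass (-0.25, SE 0.23, adjusted p = 0.68). In that fit 3 of 188 plastid genes (1.6%) were called lower, the other being CMV241C (-0.69, adjusted p = 0.043, edgeR), and 7 (3.72%) were called higher, among them ilvB (1.21, adjusted p = 0.00062) and psbA (0.72, adjusted p = 0.043).

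**Figure D3:**
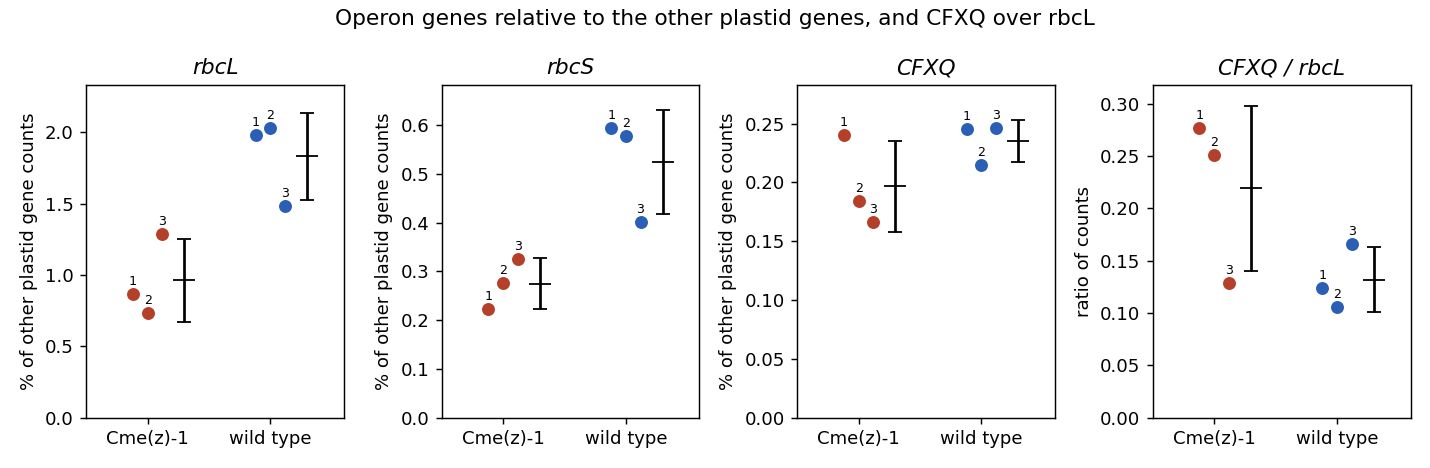
Counts of rbcL, rbcS and CFXQ as a percentage of the summed counts of the other 204 plastid genes, and the ratio of CFXQ to rbcL counts, by library; numbers are replicate numbers, and the black mark and bar are mean and SD of 3 libraries. The groups are apart for rbcL and rbcS and overlap for CFXQ (0.166% to 0.240% in Cme(z)-1, 0.215% to 0.246% in wild type) and for the ratio.

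None of the annotated neighbours of the operon passed the test. Of all 186 plastid genes tested, edgeR called 4, DESeq2 8 and limma voom 3. Of the 3 genes on each side 5 were tested, and edgeR, DESeq2 and limma voom each called 0, with 1 at an unadjusted p under 0.05 (edgeR), as had 28 of the 186 plastid genes tested. Each of the 5 had a fitted log2 fold change above 0, as had most plastid genes, since 49 of the 186 tested were fitted below 0. Upstream, trxA, which encodes a thioredoxin, had a log2 fold change of 0.26 (SE 0.30), the ribosomal protein gene rpl28 of 0.37 (SE 0.29) and ycf80 of 0.68 (SE 0.27, adjusted p = 0.23, edgeR). Downstream, ycf84 had 0.29 (SE 0.36) and ycf85 had 0.60 (SE 0.37). The gene next to CFXQ, ilvH, had 18, 13 and 9 counts in Cme(z)-1 and 7, 9 and 6 in wild type and was too low to be tested. All 6 neighbours lie on the opposite strand to the operon.

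**Figure D4:**
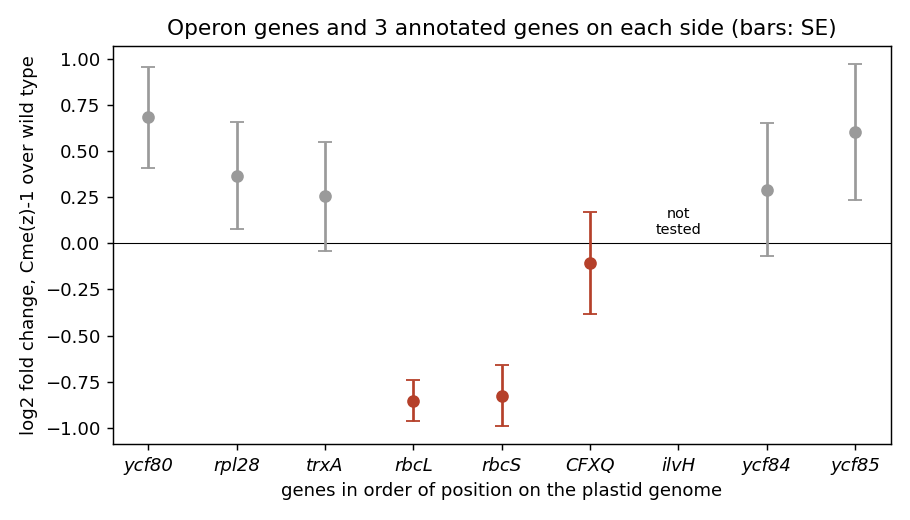
Log2 fold change (Cme(z)-1 over wild type) with its SE for the operon genes, in red, and the 3 annotated genes on each side, in grey, in their order on the plastid genome. The subunit genes rbcL (-0.85) and rbcS (-0.83) lie below 0, CFXQ (-0.11) lies near 0, and the 5 tested neighbours lie between 0.26 and 0.68.

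The regulator gene rbcR did not pass the test. It had 791, 859 and 809 counts in the Cme(z)-1 libraries and 813, 729 and 715 in the wild-type libraries. Scaled, rbcR had 73.4, 104 and 75.4 CPM in Cme(z)-1 and 90.3, 93.5 and 90.3 CPM in wild type. Its groups overlapped, with Cme(z)-1 replicate 2 as the highest library. The log2 fold change of rbcR was -0.12 (SE 0.14, 95% interval -0.44 to 0.20, adjusted p = 0.73, edgeR). The other named plastid regulators had few counts and did not pass either in edgeR, DESeq2 or limma voom; of the 4 regulators, 2 had an unadjusted p under 0.05 in edgeR, a level reached by 28 of 186 plastid genes. For ycf28, a CRP-type regulator related to NtcA, the log2 fold change was 1.30 (SE 0.39, adjusted p = 0.11, edgeR). For ycf27, an OmpR-type response regulator, it was 1.09 (SE 0.38, adjusted p = 0.16), and for the response regulator ycf29 it was 0.40 (SE 0.48, adjusted p = 0.75).

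Among the 186 plastid genes tested, rbcL and rbcS had the lowest and the next lowest log2 fold change and were the only ones called lower. The median over the 183 other tested plastid genes was 0.19 (0.062 relative to their own summed counts), against -0.031 over all genes tested. After the subunit genes came cpcA, a phycocyanin subunit gene, at -0.65 (SE 0.33, adjusted p = 0.37, edgeR). The other plastid genes that passed were higher in Cme(z)-1, a direction called for 1.08% of plastid genes and 1.29% of all genes tested. The gene ilvB, for the large subunit of acetolactate synthase in branched-chain amino acid synthesis, averaged 30.2 ± 8.86 CPM in Cme(z)-1 and 11.8 ± 2.08 CPM in wild type (log2 fold change 1.35, SE 0.25, adjusted p = 0.016, edgeR). Its call was lost without Cme(z)-1 replicate 1 (adjusted p = 0.054), wild-type replicate 1 (0.084) or wild-type replicate 3 (0.054). The chaperone gene clpC of the Clp protease averaged 94.0 ± 11.6 CPM in Cme(z)-1 and 65.1 ± 2.64 CPM in wild type (0.53, SE 0.12, adjusted p = 0.034, edgeR). Its call did not hold relative to the other plastid genes (adjusted p = 0.80) or with limma voom (0.053), and was lost in 5 of the 6 fits that left out a library.

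**Figure D5:**
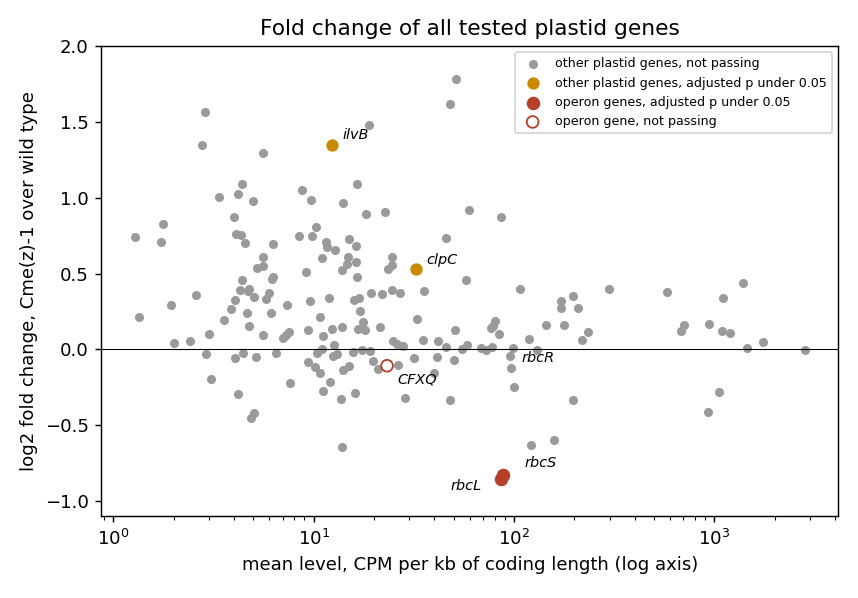
Log2 fold change (Cme(z)-1 over wild type) of the 186 tested plastid genes against their mean level in CPM per kb of coding length, on a log axis. The filled red points of rbcL and rbcS lie lowest, the open red point of CFXQ lies near 0, and the orange points of ilvB and clpC are the other plastid genes with an adjusted p under 0.05 (edgeR).

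Since rbcL and rbcS were the only plastid genes called lower in edgeR (1.08% of 186 tested), no other listed group of photosynthesis genes had such a member. Of 29 tested photosystem genes 0 passed in either direction, and their median log2 fold change was 0.16; 5 had an unadjusted p under 0.05, DESeq2 called 1 and limma voom 0. Over all 186 plastid genes tested, 28 had an unadjusted p under 0.05, DESeq2 called 8 and limma voom 3. Relative to the other plastid genes the photosystem median was 0.056. The reaction centre gene psbA was highest among them at 0.92 (SE 0.35, adjusted p = 0.20, edgeR), though it passed in the fit on plastid genes alone, and psbI lowest at -0.63 (SE 0.34, adjusted p = 0.39). For 9 phycobilisome genes the median was -0.049 (0.0016 under scaling by total counts and -0.14 relative to the other plastid genes). For 10 genes for cytochrome and electron carriers it was 0.14 (0.022 relative to the other plastid genes), and for 7 ATP synthase genes -0.0061 (0.046 under scaling by total counts and 0.032 under scaling on nuclear genes, and -0.093 relative to the other plastid genes). In these 3 lists edgeR, DESeq2 and limma voom each called 0, and 0 had an unadjusted p under 0.05 in edgeR.

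Genes for the plastid's own expression were not called lower either, since rbcL and rbcS were the only plastid genes that were. The median log2 fold change of 41 tested ribosomal protein genes was 0.37, or 0.24 relative to the other plastid genes. In edgeR 3 of them had an unadjusted p under 0.05, against 28 of the 186 plastid genes tested. For 3 RNA polymerase genes the median was 0.13, or 0.034 on that relative scale, with 1 such gene, and edgeR, DESeq2 and limma voom each called 0 in both lists. Of 8 genes for carbon and fatty acid metabolism 1 passed, against 4 of 186 plastid genes tested, and it was ilvB of amino acid synthesis. The median was 0.079, or -0.018 relative to the other plastid genes.

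The plastid genes whose levels ran most like the summed operon over the 6 libraries were cysT and cysW, which encode sulfate transport permeases, together with cpcA, rpl24 and CMV239C. On the plastid genome cysW, cysT and rbcR follow each other on the minus strand. Their Pearson correlations with the operon, on log2 CPM, were 0.85 for cysT, 0.71 for cpcA, 0.68 for cysW, 0.66 for rpl24 and 0.60 for CMV239C. All libraries of Cme(z)-1 lay below all of wild type for cysT, with means of 31.4 ± 2.15 CPM in Cme(z)-1 and 39.6 ± 1.92 CPM in wild type (SD, n = 3 each), but it did not pass (log2 fold change -0.34, SE 0.13, adjusted p = 0.22, edgeR). Besides rbcL and rbcS it was the only tested plastid gene without overlap in this direction. Of the operon genes, rbcL and rbcS correlated with the sum at 0.99 and 0.94 and CFXQ at 0.29. Each of them is part of that sum, and rbcL held most of its counts in every library. These values are therefore partly fixed by the share of each gene, and the likeness search followed mainly rbcL.

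Many nuclear genes were available for the same search, and the closest had higher correlations. They were CMC149C and CMQ158C (both 0.996), CMT351C (0.994), CMK215C and CMF110C (both 0.991). Their log2 fold changes were -0.63, -0.92, -0.34, -1.81 and -0.65, and those other than CMT351C (adjusted p = 0.059) passed the edgeR test. All these values share the 6 libraries and their depth, and over 2 groups of 3 libraries such a correlation is set mostly by the difference between the groups.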

How the data were processed

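Libraries came from poly(A) RNA and were unstranded, per the labels. The authors deposited raw read counts per gene and TE copy. Trimming with Trim Galore and alignment with STAR appear, without versions, in the submitters' processing notes, and the sources used here do not give the counting program, so reads with several hits or spanning 2 genes could have been shared or dropped. Groups and replicates follow the titles. Gene names are gene or transcript names of the annotation (build ASM9120v1, per the file headers; positions counted from 1).

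Counts of 4984 genes and 5074 TE copies were fitted together with edgeR 4.0.16 in R 4.3.3 (filterByExpr with minimum count 10 and minimum total 15, TMM, glmQLFit, glmQLFTest) and adjusted over 7641 rows. SEs come from the F statistic, and 95% intervals from the SE and the fit's degrees of freedom. Ratios were compared by exact permutation over samples. The edgeR step was tested on simulated data in which all rows shared the same spread (biological coefficient of variation 0.167) and libraries were independent. That test does not cover differences in spread between genes. Correlations used log2 CPM with a prior count of 2. Alternatives were other scalings, filters and denominators, DESeq2 1.42.0, limma 3.58.1 (voom), a replicate block and each library left out.

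The named genes were the operon, 3 neighbours on each side, plastid genes called, the named regulators, examples from up to 4 genes of lowest p per list, and the 5 plastid and 5 nuclear genes most like the operon; psbI was named after its value was seen. Members and lists were chosen with earlier results of these data known. Lists of nuclear genes by product were not used here. Library pairs within a group differed by a chi-square of 16.2 to 33.3 per degree of freedom, so none was a library deposited again; this does not show that they came from separate cultures.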

Additional observations from a re-analysis of the deposited data

How the results depend on the processing

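The log2 fold change of rbcL kept its direction and its call under all 11 settings other than leaving out a library and in all 6 fits that left one out (-0.93 to -0.79). That of rbcS kept its call under the same 11 settings, and with 1 library left out it ranged from -0.95 to -0.76, with the call lost in 4 of 6 fits. CFXQ never passed, and its value ranged from -0.38 to 0.15 with 1 library left out; it was above 0 without Cme(z)-1 replicate 3 only. The number of genes and TE copies called, 378, was 667 with DESeq2. It was 200 to 342 with 1 library left out, lowest without wild-type replicate 1 (200) and Cme(z)-1 replicate 1 (226). A fit of genes only, which tests fewer features, called 118 genes, whereas the main fit called 63 genes higher and 89 lower. Of plastid genes 4 were called, against 8 with DESeq2 and 1 to 8 with 1 library left out (1 without replicate 1 of either group, 8 without Cme(z)-1 replicate 3 and 2 without wild-type replicate 2 or 3); apart from the features and libraries removed, the cause was not tested.

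Log2 differences of the ratios to other plastid genes moved by less than 1 SD between replicates under other denominators. The same held for each gene with edgeR on plastid genes only. Leaving out 1 of 3 libraries cannot move a group mean by that much, so this limit does not judge those fits. With 1 library left out, the difference relative to other plastid genes ranged from -1.19 to -0.78 for rbcL. For rbcS it ranged from -1.11 to -0.78, and for CFXQ from -0.43 to -0.16.

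Same-numbered samples deviated together with correlations of 0.022, 0.13 and 0.26, and those of different numbers ranged from -0.26 to 0.14. These values do not settle whether the numbers mark pairs, and the main fit did not use them. With the replicate number as a block, log2 fold changes were -0.85 for rbcL (adjusted p = 0.010, edgeR), -0.83 for rbcS (0.024) and -0.16 for CFXQ (0.82), and 318 genes and TE copies were called, 5 of them of the plastid; clpC was not among these (0.066). Not every sample correlated best with its own number. The 95% interval of CFXQ (-0.74 to 0.52) overlaps those of rbcL and rbcS; its counting error was smaller than its spread in Cme(z)-1. Depth kept ilvH from being tested.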
